A study of Mus musculus with 6 samples.

Results

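The genes described here are the core enzymes and carriers of the microRNA pathway and the 4 Argonautes of the mouse, 10 genes of the 23896 with a symbol in the count files. They were taken by name (Drosha, Dgcr8, Xpo5, Dicer1, Tarbp2, Prkra, Ago1, Ago2, Ago3 and Ago4), each through the RefSeq transcript with the highest mean count, and all 10 passed the filter on low counts. The libraries are poly(A)-selected, stranded mRNA-seq of MEL cells, a mouse erythroleukemia line that matures along the red cell lineage when DMSO is added to the medium. Cells were sampled on day 0, day 2 and day 4 of culture with 2% DMSO, with 2 biological replicates per day and 6 libraries in all, and no other genotype or agent sets the groups apart. Untreated cells kept for the same number of days were not sampled, so time in culture and DMSO cannot be told apart. Counts on transcripts came to 43415610 and 53899476 on day 0, 39258359 and 45896399 on day 2, and 35294930 and 45621291 on day 4.

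A microRNA begins as a hairpin in a longer transcript, which the Microprocessor, made of the nuclease Drosha and its RNA-binding partner Dgcr8, cuts out in the nucleus. Exportin-5, the product of Xpo5, carries the hairpin to the cytoplasm, where Dicer, helped by the double-stranded RNA-binding proteins TRBP (Tarbp2) and PACT (Prkra), trims it to a duplex. An Argonaute protein keeps a strand of the duplex and is guided by it to messenger RNAs, and Ago2 is the Argonaute whose slicing activity is needed in red cell precursors to mature miR-451a, which bypasses Dicer.

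The erythroid microRNAs miR-451a and miR-144-3p are shown because the precursor rows of their shared locus are among the values below. Capitals mark the seed, bases 2 to 8, and the sequences are from RefSeq, GRCm38.p6.
miR-451a: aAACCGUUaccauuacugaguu
miR-144-3p: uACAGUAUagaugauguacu

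Levels below are CPM, counts scaled to the size of each library with TMM factors, and changes are log2 fold changes with standard errors (SE) from edgeR's quasi-likelihood test, adjusted by Benjamini-Hochberg over all tested transcripts and called at an adjusted p below 0.05. Alpha-globin served as the check of induction, since its transcript rises in maturing red cells. Hba-a1 stood at 128 and 123 CPM on day 0, 2255 and 2768 on day 2, and 9793 and 11460 on day 4. Of 8 erythroid markers 7 passed the filter on each day by themselves, and 6 of these were higher and 1 lower on day 4 than on day 0. Over all tested genes 35.5% were higher and 36.4% lower in that comparison. The myeloid markers summed to 106 and 127 CPM on day 0 and to 13.9 and 8.90 on day 4. Only 2 of these 6 markers passed the filter on each day. Both were lower on day 4 than on day 0, beside 36.4% of all tested genes. Spi1 alone stood at 99.2 and 120 CPM on day 0. The mast cell and basophil markers summed to 3.36 and 3.79 CPM on day 0 and to 0.0277 and 0.0221 on day 4, with Cpa3 the most abundant of 4 and Prss34 at 0 in every library. Lymphoid markers summed to at most 0.172 CPM in a library (Cd79a the most abundant of 4, Cd8a at 0), and fibroblast and endothelial markers to at most 2.94 (Col1a1 the most abundant of 4, Cdh5 at 0). Megakaryocyte markers summed to 268 and 271 CPM on day 0, 211 and 233 on day 2, and 543 and 617 on day 4. Itga2b made up most of each sum. Of the 3 markers 2 were higher on day 4 than on day 0, beside 35.5% of all tested genes. The remaining 1, Pf4, was lower, beside 36.4% (57.4 and 42.6 CPM on day 0, 10.2 and 8.93 on day 4). The part of these lineage shifts in the changes below was not tested, and in bulk RNA fewer cells of a type and less RNA per cell cannot be told apart.

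On day 2, 9 of the 10 genes differed from day 0, against 62.5% of all 12381 tested genes. Of these, 6 were higher, against 31% of all genes, and 3 were lower, against 31.5%. From day 2 to day 4, 4 of the 10 changed, against 30.3% of all genes, with 3 higher (14% of all genes) and 1 lower (16.2%). Over the whole course 9 of 10 changed, against 71.8%, with 6 higher (35.5%) and 3 lower (36.4%). The median log2 fold change of the 10 was 0.36, 0.15 and 0.62 in these comparisons, beside 0.01, 0.00 and -0.02 over all tested genes. The calls between day 2 and day 4 were the least stable. None was left by edgeR without day 2 replicate 1, day 2 replicate 2 or day 4 replicate 2 (0, 3 and 0 genes at an unadjusted p below 0.05), 2 were left without day 4 replicate 1, and 1 with total counts in place of TMM scaling. Calls over all transcripts fell as well in most of these fits, from 31% in the main fit to 7.53%, 13.2%, 12% and 21.2% without these libraries in the order given, and were 30.9% with total counts.

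**Figure D1:**
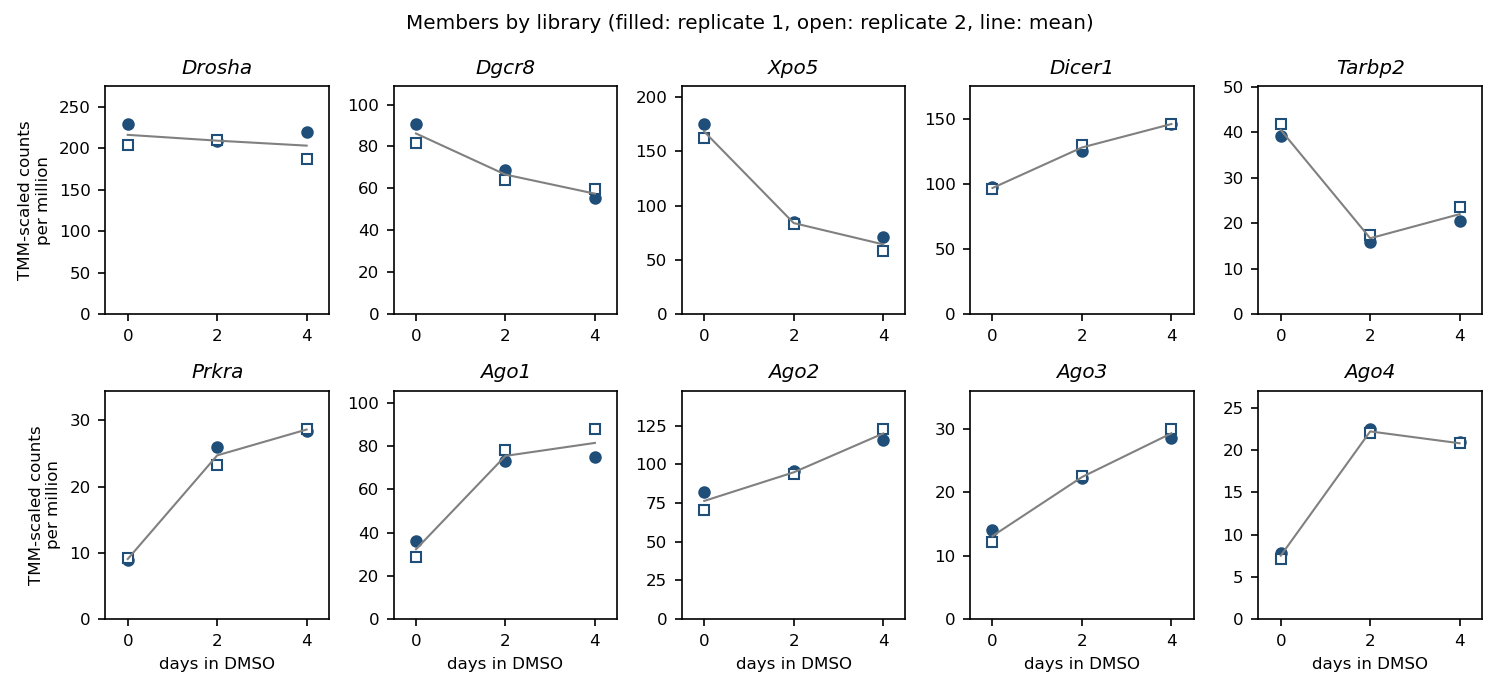
TMM-scaled CPM of each of the 10 genes in each library against days in DMSO, with replicate 1 filled, replicate 2 open and a line through the means. Prkra and the Argonautes lie higher on day 4 than on day 0, Xpo5, Tarbp2 and Dgcr8 lie lower, and Drosha overlaps between days.

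In the Microprocessor, Drosha had 229 and 204 CPM on day 0, 209 and 210 on day 2, and 219 and 187 on day 4. The libraries of the 3 days overlapped. The log2 fold change of Drosha on day 4 against day 0 was -0.09 (SE 0.12, edgeR adjusted p 0.508), and its sign changed under total counts and without day 4 replicate 2. Dgcr8, which holds the hairpin for Drosha, had 90.7 and 81.6 CPM on day 0, 69.0 and 64.1 on day 2, and 55.4 and 59.7 on day 4. Each day's libraries lay below those of the day before. Dgcr8 fell by day 2 (log2 fold change -0.37, SE 0.11, edgeR adjusted p 0.0103) and was also lower on day 4 against day 0 (-0.58, SE 0.11, adjusted p 0.000492), while day 4 against day 2 was not called (-0.21, adjusted p 0.158). The day 2 call was lost with total counts (log2 fold change -0.18) and without day 2 replicate 2 (-0.32). Of the Dgcr8 transcript, 19.1% of the bases overlap exons of Trmt2a on the opposite strand, and 327, 88 and 79 bases overlap Gm49776, Gm24572 and Mir1306 on the same strand, whose reads cannot be told apart from those of Dgcr8. The same holds for 72 bases of Drosha and Gm47288, while 219 bases of Ago2 overlap Chrac1 on the opposite strand.

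The export gene had the largest fall of the 10 on day 4 against day 0. Xpo5 had 175 and 162 CPM on day 0, 85.2 and 82.6 on day 2, and 70.8 and 57.8 on day 4. All later libraries lay below both day 0 libraries. Its log2 fold change was -1.01 on day 2 against day 0 (SE 0.12, edgeR adjusted p 3.39e-05) and -1.39 on day 4 against day 0 (SE 0.12, adjusted p 1.77e-06). Between day 2 and day 4 it was -0.38 (adjusted p 0.0319), a call lost without day 2 replicate 1 (-0.36), day 2 replicate 2 (-0.41) or day 4 replicate 2 (-0.25).

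Dicer1, which encodes the cytoplasmic nuclease, had 97.8 and 95.9 CPM on day 0, 125 and 130 on day 2, and 146 in both day 4 libraries. Each later day lay above the day before. Its log2 fold change on day 4 against day 0 was 0.59 (SE 0.10, edgeR adjusted p 0.000264). The increase by day 2 was 0.40 (adjusted p 0.00468) and was no longer called without day 2 replicate 2 (0.37). Day 4 against day 2 was not called (0.19, edgeR adjusted p 0.167).

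The 2 partners of Dicer moved in opposite directions. Tarbp2 had 39.2 and 41.8 CPM on day 0, 15.9 and 17.5 on day 2, and 20.4 and 23.5 on day 4. Its day 2 libraries were the lowest and its day 4 libraries lay between those and day 0. Prkra had 8.90 and 9.23 CPM on day 0, 26.0 and 23.3 on day 2, and 28.4 and 28.7 on day 4. Every later library of Prkra lay above both day 0 libraries. On day 4 against day 0, Tarbp2 had a log2 fold change of -0.88 (SE 0.12, edgeR adjusted p 6.39e-05) and Prkra one of 1.66 (SE 0.12, adjusted p 6.07e-07). On day 2 the log2 fold changes were -1.28 (adjusted p 8.25e-06) and 1.44 (adjusted p 3.47e-06). Tarbp2 rose again from day 2 to day 4 (0.39, adjusted p 0.0342), a call lost without day 2 replicate 1 (0.33), day 2 replicate 2 (0.46) or day 4 replicate 2 (0.29) and with total counts (0.31).

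Whether a pair changed unequally was tested on the difference of log2 changes in 2 ways, by limma on the ratio of each transcript to the reference within a library, and by combining edgeR's standard errors of both transcripts. The ratio test was the planned one. All of its ratios share the noise of the reference transcript, so the second test was added after the data were seen, and a difference is called here only where both call it. Prkra changed by 2.54 more than Tarbp2 on the log2 scale between day 0 and day 4 (95% interval 2.15 to 2.92 and adjusted p 4.98e-07 with both standard errors). The ratio test gave a far smaller adjusted p, 1.85e-22, and does not take that shared noise into account. By both tests 76.5% of all transcripts changed differently from Tarbp2 in that comparison, 87.3% on day 2 against day 0, where the difference for Prkra was 2.72 (adjusted p 3.89e-07), and 37.7% on day 4 against day 2, where Prkra was not called (-0.18, adjusted p 0.413). Dgcr8 changed by -0.49 relative to Drosha between day 0 and day 4 (95% interval -0.84 to -0.14, adjusted p 0.0193 with both standard errors and 0.0123 by limma), beside 64.5% of all transcripts called against Drosha. Without day 4 replicate 1 this difference was -0.32 and not called by limma (adjusted p 0.0691). It was not called on day 2 against day 0 (-0.32, adjusted p 0.111), where 50.9% of transcripts were, or on day 4 against day 2 (-0.17, adjusted p 0.51), where 14.3% were. Limma gave -0.33 for the day 2 difference with all libraries and without either day 4 library, and called it only in the latter fits. For day 4 against day 2 limma gave -0.16 with all libraries, 0.004 without day 4 replicate 1 and -0.33 without day 4 replicate 2.

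**Figure D2:**
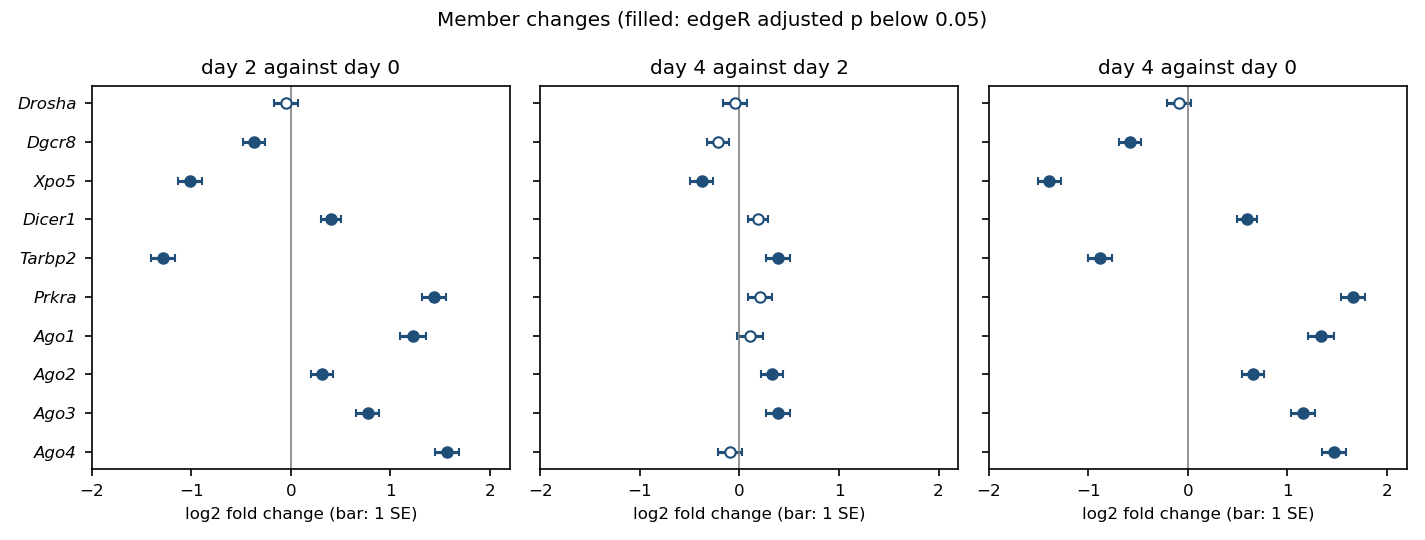
Log2 fold changes of the 10 genes with 1 SE in the 3 comparisons, filled where edgeR's adjusted p was below 0.05. Prkra, at 1.66, and Xpo5, at -1.39, mark the ends of the range on day 4 against day 0.

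The Argonautes all rose over the course. Ago1 had 36.0 and 28.5 CPM on day 0, 73.0 and 78.0 on day 2, and 74.9 and 88.0 on day 4. Ago2 had 82.0 and 70.7 CPM on day 0, 95.7 and 94.0 on day 2, and 116 and 123 on day 4. Both later days of Ago1 and Ago2 lay above day 0, and the day 2 and day 4 libraries of Ago1 overlapped. Ago3 had 14.0 and 12.2 CPM on day 0, 22.3 and 22.5 on day 2, and 28.6 and 30.0 on day 4. Ago4 had 7.87 and 7.13 CPM on day 0, 22.5 and 22.0 on day 2, and 20.9 and 20.8 on day 4. Ago3 stood higher on each later day, whereas Ago4 was highest on day 2.

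On day 4 against day 0 the log2 fold changes were 1.34 for Ago1 (SE 0.13, edgeR adjusted p 5.09e-06), 0.65 for Ago2 (SE 0.11, adjusted p 0.000254), 1.16 for Ago3 (SE 0.12, adjusted p 7.85e-06) and 1.47 for Ago4 (SE 0.12, adjusted p 1.47e-06). By day 2 they were 1.23, 0.31, 0.77 and 1.57 (adjusted p 1.86e-05, 0.026, 0.000266 and 2.21e-06). The day 2 call of Ago2 was lost without day 0 replicate 2 (log2 fold change 0.20), day 2 replicate 1 (0.30) or day 2 replicate 2 (0.33). With total counts its log2 fold change was larger and called (0.51, edgeR adjusted p 0.00199). From day 2 to day 4, Ago2 (0.33, adjusted p 0.0371) and Ago3 (0.39, adjusted p 0.0322) were called higher, while Ago1 (0.11, adjusted p 0.559) and Ago4 (-0.09, adjusted p 0.586) were not called. Without day 4 replicate 1 the log2 fold change of Ago1 was 0.22, and without day 4 replicate 2 it was -0.01. Those calls of Ago2 and Ago3 were lost with total counts (0.25 and 0.30) and without day 2 replicate 1 (0.34 and 0.38), day 2 replicate 2 (0.32 and 0.39), day 4 replicate 1 (0.37 and 0.42) or day 4 replicate 2 (0.29 and 0.35).

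Relative to Ago2, the other Argonautes rose more in the first days. On day 2 against day 0 the difference of log2 changes was 0.92 for Ago1, 0.46 for Ago3 and 1.25 for Ago4 (adjusted p 0.00103, 0.0323 and 0.000103 with both standard errors), and all 3 were called by both tests, as were 55.3% of all transcripts. On day 4 against day 0 it was 0.69, 0.51 and 0.83 (adjusted p 0.00388, 0.0153 and 0.000909), again 3 of 3, beside 71% of all transcripts. On day 4 against day 2 none of the 3 was called by both tests, beside 34.4% of all transcripts. There the differences were -0.23 for Ago1, 0.05 for Ago3 and -0.43 for Ago4 (adjusted p 0.318, 0.819 and 0.0589), and limma alone called Ago4 (adjusted p 0.0276). Without day 2 replicate 1 or day 2 replicate 2, limma no longer called Ago3 on day 2 against day 0 (adjusted p 0.0644 and 0.0841).

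**Figure D3:**
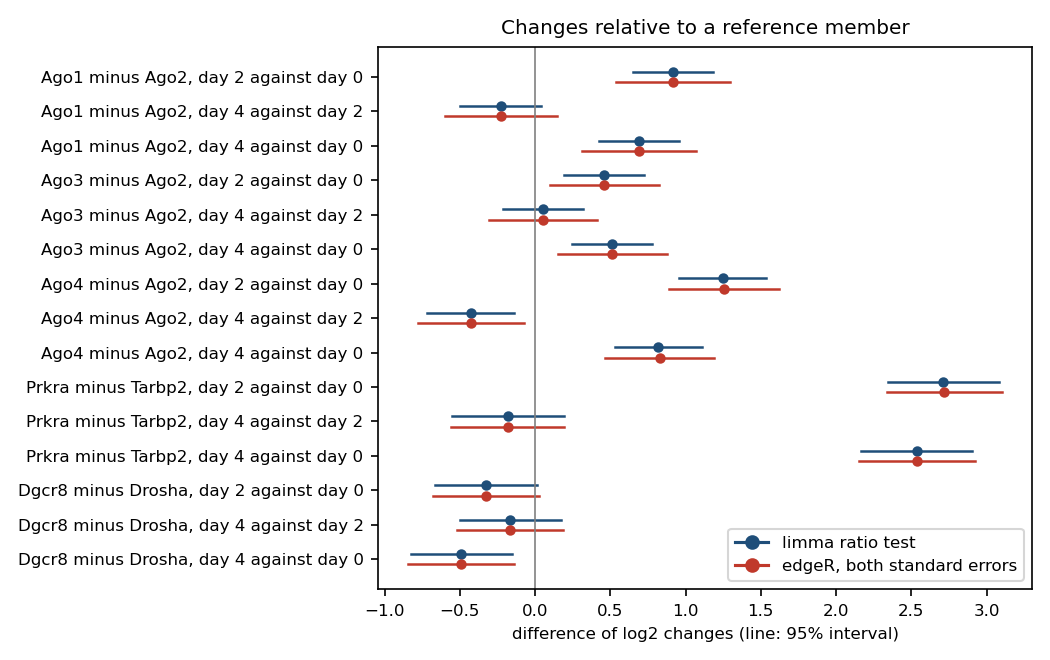
Differences of log2 changes between a gene and its reference, with 95% intervals, by the limma ratio test and by edgeR with both standard errors. The edgeR intervals are the wider ones in every row, and for Ago4 against Ago2 between day 2 and day 4 only limma called the difference.

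The order of the Argonautes in level depended on the length used. Lengths are those of GENCODE transcripts, whereas the counts are on RefSeq transcripts. Per kilobase of whole transcript, Ago1 had a level of 4.46 ± 0.727 CPM per kilobase on day 0, 10.5 ± 0.489 on day 2 and 11.3 ± 1.28 on day 4 (mean ± SD, n = 2 here and below). On that scale Ago2 had 5.54 ± 0.579, 6.87 ± 0.085 and 8.67 ± 0.342 CPM per kilobase. By GENCODE transcript length Ago2 thus stood above Ago1 on day 0 and below it on days 2 and 4. Their libraries did not overlap on any day. Ago4, at 1.15 ± 0.0796, 3.40 ± 0.0547 and 3.19 ± 0.013 CPM per kilobase of transcript, stood above Ago3, at 0.840 ± 0.0851, 1.44 ± 0.0107 and 1.88 ± 0.0664, on each day without overlap. Per kilobase of coding sequence, Ago2 led on all 3 days, with 29.6, 36.8 and 46.4 CPM per kilobase against 12.5, 29.4 and 31.7 for Ago1. On the coding scale Ago3 had 5.08, 8.68 and 11.4 CPM per kilobase and Ago4 2.90, 8.60 and 8.06, and these 2 overlapped on day 2. The GENCODE transcripts run to 13800 bases for Ago2 and 15595 for Ago3 but 7227 for Ago1 and 6537 for Ago4. Their coding lengths lie between 2571 and 2583 bases. The 3′ end of Ago2 lies at chr15:73095844 in GENCODE and at 73101625 in RefSeq, which is shorter there. That of Ago3 lies at chr4:126332732 in GENCODE and at 126326994 in RefSeq, which runs further. Since the counts are on RefSeq transcripts, bases of Ago2 that only GENCODE holds add length but no counts. A shorter length gives a higher level, so the level of Ago2 per kilobase of GENCODE transcript may be too low. Ago1 above Ago2 on days 2 and 4 is thus shown for the GENCODE length only. Levels by RefSeq length were not computed. The counts do not show how much of each annotated transcript the cells make, so which order holds was not tested.

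Shares of the summed level of the 4 were taken per kilobase of GENCODE transcript, so a shorter Ago2 transcript would give it higher shares. Ago2 made up 45.6% and 46.8% on day 0, 31.7% and 30.4% on day 2, and 35.4% and 34.0% on day 4. The day 0 libraries were the highest and the day 2 libraries the lowest. Per kilobase of coding sequence the mean share of Ago2 was 59.1%, 44.1% and 47.6% on the 3 days. On either scale the share of Ago2 was lowest on day 2.

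**Figure D4:**
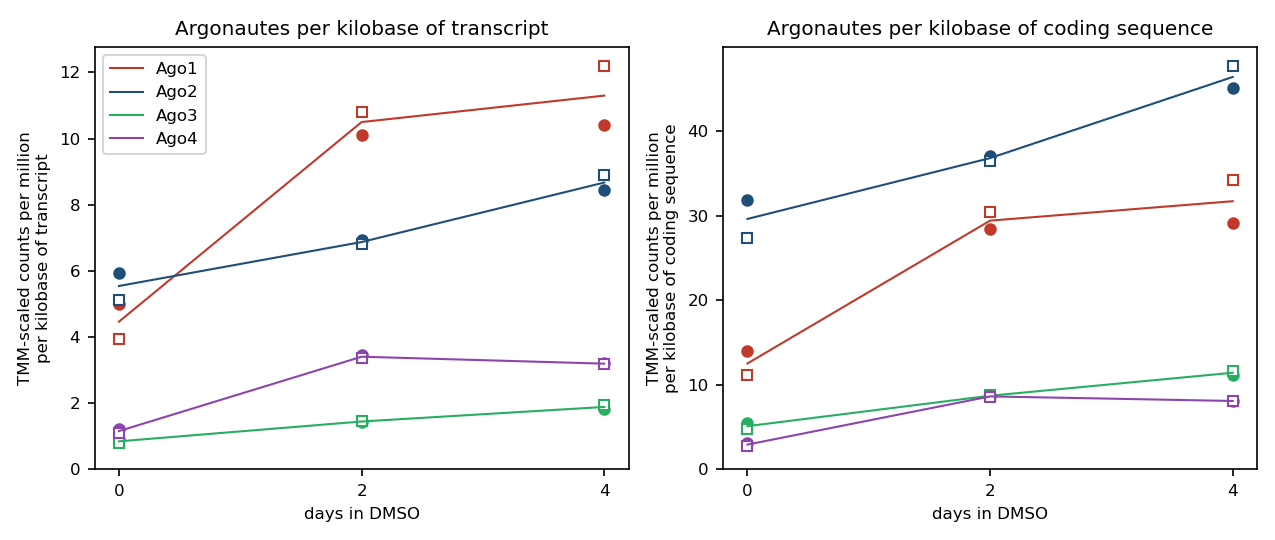
Levels of the 4 Argonautes in each library against days in DMSO, per kilobase of transcript on the left and per kilobase of coding sequence on the right, with replicate 1 filled, replicate 2 open and lines through the means. Ago1 crosses above Ago2 by day 2 on the left scale, which uses GENCODE transcript lengths, and stays below it on the right scale.

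Ago3, Ago1 and Ago4 lie next to each other on chromosome 4 and on 1 strand, whereas Ago2 is on chromosome 15. Within 250 kb of the trio RefSeq lists 23 further genes, of which 14 were tested. Of these, Tekt2 passed the filter only through days 2 and 4 and is left out of the counts. On day 4 against day 0, 1 of the other 13 was higher, 7 lower and 5 not called, beside 35.5% higher and 36.4% lower over all tested genes, with a median log2 fold change of -0.29 beside -0.02 over all tested genes. The higher gene was AU040320 (log2 fold change 0.96, SE 0.11, edgeR adjusted p 1.15e-05). The nearest tested gene beyond Ago4, Clspn, which encodes a replication checkpoint protein, had a log2 fold change of -1.34 (SE 0.11, adjusted p 8.98e-07), and Psmb2, a proteasome subunit gene, had -0.98 (adjusted p 6.87e-05). Stk40, Thrap3, Map7d1, Adprhl2 and Ncdn were lower, at -0.63, -0.76, -1.33, -0.46 and -0.29. Oscp1, Lsm10, Eva1b, Sh3d21 and Trappc3 were not called, at 0.25, -0.23, 0.23, 0.68 and -0.18.

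**Figure D5:**
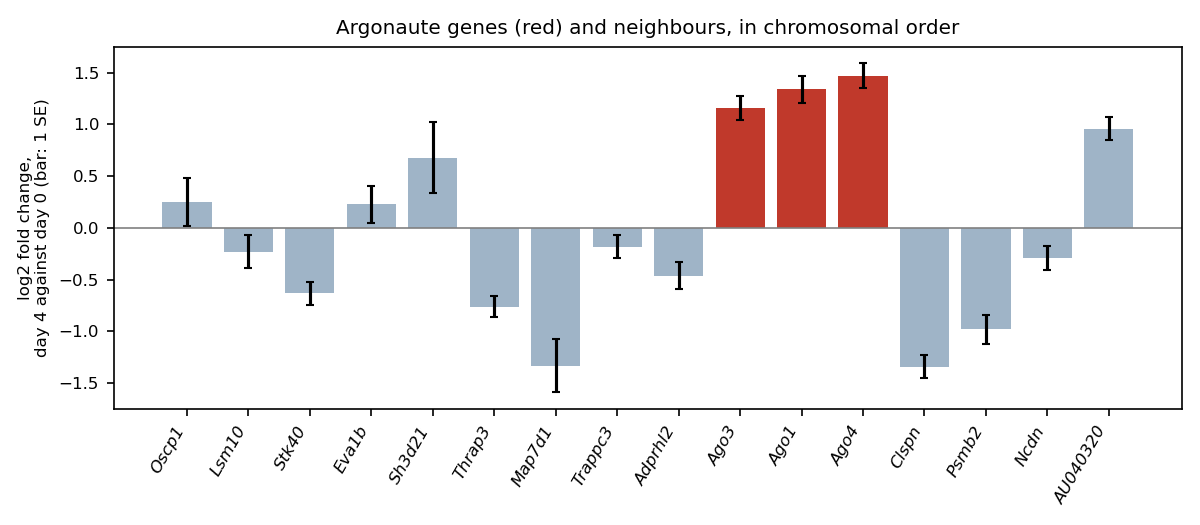
Log2 fold changes on day 4 against day 0, with 1 SE, of Ago3, Ago1 and Ago4 in red and of the 13 neighbours that passed the filter on each day, in chromosomal order. The trio lies between 1.16 and 1.47, and 7 neighbours were called lower.

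The promoters of the trio are shown from 250 bases before to 50 after the start site. Each of these genes was higher on day 4 than on day 0, and their courses were not compared with each other by a test. The sequences are from RefSeq, GRCm38.p6, on the minus strand of chromosome 4 and written 5′ to 3′. Their places are chr4:126468534-126468833 for Ago1, chr4:126429493-126429792 for Ago3 and chr4:126533409-126533708 for Ago4. Capitals mark matches to CCNCNCCC, a loose form of the sequence bound by Kruppel-like factors.
Ago1 promoter: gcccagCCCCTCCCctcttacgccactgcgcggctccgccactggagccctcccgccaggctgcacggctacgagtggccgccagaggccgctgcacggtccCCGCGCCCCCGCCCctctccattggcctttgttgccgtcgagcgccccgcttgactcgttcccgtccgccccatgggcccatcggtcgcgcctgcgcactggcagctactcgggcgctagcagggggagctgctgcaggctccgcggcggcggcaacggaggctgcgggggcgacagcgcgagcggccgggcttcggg
Ago3 promoter: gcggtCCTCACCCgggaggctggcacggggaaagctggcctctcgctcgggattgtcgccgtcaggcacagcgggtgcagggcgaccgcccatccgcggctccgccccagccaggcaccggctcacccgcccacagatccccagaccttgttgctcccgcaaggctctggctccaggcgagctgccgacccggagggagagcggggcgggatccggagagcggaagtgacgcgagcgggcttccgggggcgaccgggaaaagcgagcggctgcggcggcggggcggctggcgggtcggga
Ago4 promoter: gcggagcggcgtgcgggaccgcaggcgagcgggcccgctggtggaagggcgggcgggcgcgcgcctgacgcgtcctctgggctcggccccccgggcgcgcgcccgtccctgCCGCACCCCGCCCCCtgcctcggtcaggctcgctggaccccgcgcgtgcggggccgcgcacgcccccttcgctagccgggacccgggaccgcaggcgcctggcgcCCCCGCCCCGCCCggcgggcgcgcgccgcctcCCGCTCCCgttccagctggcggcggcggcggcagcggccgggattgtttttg

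Besides CCNCNCCC, the sequence AGATAA, known from erythroid zinc finger factors, was searched on both strands. So were CCACACCC, which is a case of CCNCNCCC, and the E-box CACGTG. The first of these occurred in all 3 promoters, as in 49.5% of 32851 promoters of the same length, and the other motifs, which 11.2%, 3.56% and 7.15% of promoters hold in the order given, did not occur in these windows. The GC content was 75.7% for Ago1, 74.7% for Ago3 and 83.3% for Ago4, against a median of 52.7%.

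By the smallest root mean square difference in centred log2 CPM over the 6 libraries, among 10444 genes, the profiles nearest to Ago2 were those of Trp53bp1 (0.031), Kpna6 (0.034) and Kansl1 (0.035). Nearest to the mean profile of Ago1, Ago3 and Ago4 were 1110051M20Rik (0.021), C9orf72 (0.026) and Gbp7 (0.033).

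Among the partners of the Microprocessor, 2 of 12 tested genes were higher, 9 lower and 1 not called on day 4 against day 0, beside 35.5% higher and 36.4% lower over all tested genes, with a median log2 fold change of -0.76 beside -0.02 over all tested genes. The largest rise was that of the helicase gene Ddx17 (1.05, SE 0.12, edgeR adjusted p 1.4e-05) and the largest fall that of Erh (-1.83, SE 0.16, adjusted p 1.87e-06). Of 14 genes for export cofactors and for the chaperones that load Argonautes, 1 was higher, 12 lower and 1 not called, against the same 35.5% and 36.4%, with a median of -1.07. Ran, the GTPase that exportin-5 needs to bind its cargo, went from 371 and 364 CPM on day 0 to 89.7 and 81.8 on day 4 (adjusted p 6.85e-08), and the co-chaperone gene Dnajb1 rose by 0.34 (SE 0.11, adjusted p 0.019).

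Of 27 genes for the silencing machinery that Argonautes recruit, 12 were higher, 5 lower and 10 not called on day 4 against day 0, beside 35.5% higher and 36.4% lower over all tested genes, and the median log2 fold change was 0.01, beside -0.02. The helicase gene Mov10 had the largest rise (1.53, SE 0.13, edgeR adjusted p 1.81e-06) and Cnot9, of the deadenylase complex, the largest fall (-0.99, SE 0.10, adjusted p 5.85e-06). Of 15 genes for tailing, turnover and editing of small RNAs 12 were tested, with 8 higher, 2 lower and 2 not called, against the same 35.5% and 36.4%, and a median of 0.51. Zswim8, which encodes the substrate receptor of a ubiquitin ligase in target-directed microRNA decay, rose by 1.45 (SE 0.11, adjusted p 7.1e-07), and the exonuclease gene Xrn2 fell by 1.00 (SE 0.10, adjusted p 6.72e-06). Of 14 double-stranded RNA-binding genes, 8 were higher, 5 lower and 1 not called, where 71.8% of all genes were called, with a median of 0.44, between Zfp346 at 1.47 (adjusted p 8.11e-07) and Mrpl44 at -1.12 (adjusted p 9.12e-06). The editing genes Adar and Adarb1, both higher, are counted in this list and in the one before. Among the germline relatives of the Argonautes 2 of 3 were tested and 1 was called, where 71.8% of all genes were called. That gene, Piwil4, fell from 47.4 and 45.5 CPM on day 0 to 10.5 and 8.31 on day 4 (log2 fold change -2.31, SE 0.14, adjusted p 1.52e-07).

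Of 15 microRNA host genes 12 were tested on day 4 against day 0, with 8 higher, 2 lower and 2 not called, beside 35.5% higher and 36.4% lower over all tested genes, and a median log2 fold change of 0.48, beside -0.02. Ank1, a membrane skeleton gene that hosts miR-486, rose by 1.75 (SE 0.13, edgeR adjusted p 7.54e-07), and Mcm7, a replication helicase gene that hosts the miR-106b cluster, had -1.49 (SE 0.11, adjusted p 4.5e-07). Of 17 precursor rows 8 passed the filter, 4 of them only through later days, so no count of calls is given. Mir144 had no count in either day 0 library, 13 and 16 counts on day 2, and 19 and 18 on day 4. Mir451a, from the same locus and with its mature sequence given above, had 1 and 5 counts on day 0, 60 and 74 on day 2, and 65 and 76 on day 4. The changes of both are left out, since they passed the filter only through the later days. These rows count poly(A) transcripts across the hairpin, and mature microRNAs were not measured.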

How the data were processed

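The authors trimmed reads of TruSeq Stranded mRNA libraries with cutadapt, aligned them to mm10 with TopHat and deposited unnormalized read counts for 32654 RefSeq transcripts per library. HTSeq is listed among the tools, without settings. Reads on no feature, 50.5% to 58.4% of a library, were left out. Opposite-strand gene pairs were checked, and in 32 of 56 the count was under 10% of that expected had strand been ignored. Symbols came from RefSeq GRCm38.p6, lengths from GENCODE. The deposited counts were fitted with edgeR 4.0.16 (TMM, filterByExpr by day, 18351 transcripts kept, glmQLFit and glmQLFTest, 6 libraries, no covariate).

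Relative changes used limma 3.58.1 on within-library log2 ratios (prior count 2, eBayes with trend), as planned. Every ratio carries the noise of the reference transcript, and in 1 of 4 simulated data sets this test called many unchanged transcripts. A second test, the difference of edgeR log2 fold changes with the standard errors of both transcripts, was therefore added after the data were seen. In repeated simulations without change both tests at times made many false calls, the second less often, so neither is taken alone.

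Named genes are the 10 members, the largest called rise and fall of each list on day 4 against day 0, the 3 nearest profiles, the tested neighbours within 250 kb, genes overlapping a member, Adar and Adarb1, and, from the marker lists, the most abundant of each list, those at 0 and Hba-a1. Outside this rule are Mir451a and Pf4, picked once their values had been seen. Members and lists were chosen with earlier results of these data known. Alternatives included DESeq2 1.42.0, other scalings, no filter, the replicate number as a block, and leaving out each library.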

Additional observations from a re-analysis of the deposited data

How the results depend on the processing

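Of the 30 log2 fold changes of the 10 genes, none changed its call with DESeq2, RLE factors, no filter, only the 2 days compared, other transcripts (only Drosha, at nearly the same counts, and Tarbp2 have another), or library sizes without globin transcripts or, added after the data were seen, without the 45S rRNA transcript. With total counts 4 calls were lost, and the median of all transcripts moved from 0.02 to 0.22 on day 2 against day 0. Of all transcripts, 7593 were then higher and 4187 lower (5847 and 5792 in the main fit), and 1880 higher and 3787 lower on day 4 against day 2 (2682 and 3002). The count between day 2 and day 4 was then 1 in place of 4. With a size limit of 1 on the log2 fold change, calls remained for 5, 0 and 5 genes on day 2 against day 0, day 4 against day 2 and day 4 against day 0, beside 22.9%, 5.9% and 35.1% of all transcripts, since the smaller changes no longer count, and at an unadjusted p below 0.05 edgeR likewise gave 0 of that size between day 2 and day 4.

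With 1 library left out, only log2 fold changes not called in the main fit changed sign. These were those of Drosha and, without day 4 replicate 2, that of Ago1 on day 4 against day 2. Calls lost in such fits are named with each gene above. A lone library was then assumed to vary like the other groups. Of 9 Argonaute differences from Ago2, limma called 7 and the test with both standard errors 6. By both tests 55.3% of all transcripts differed from Ago2 on day 2 against day 0. The share was 34.4% on day 4 against day 2 and 71% on day 4 against day 0. By limma without 1 library, the difference of Dgcr8 from Drosha ranged from -0.66 to -0.32 and that of Prkra from Tarbp2 from 2.44 to 2.63. Limma's adjusted p-values for these differences leave out the noise its ratios share.

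The labels give only replicate numbers, and the replicate differences of 2 days correlated at 0.032 to 0.079 over 18351 transcripts. With the replicate block, 9, 4 and 9 genes were called in the order above, beside 63%, 30.4% and 72.2% of all transcripts. Limma with this block called 7 of the 9 Argonaute differences and gave -0.49 for Dgcr8 and 2.54 for Prkra. No edgeR call of the 10 genes and no limma call changed. The test with both standard errors was not run with the block.

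With coding length the share of Ago2 moved to 59.1%, 44.1% and 47.6% on days 0, 2 and 4 from 46.2%, 31% and 34.7%. The GENCODE transcripts used for the latter values differ more in length than the coding sequences. With 2 libraries per day, small changes may have gone uncalled.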
